A study of Mus musculus with 12 samples.

Results

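The genes described here are 42 genes of mitosis and the G2/M phase, taken as the rows of the deposited expression table whose gene name is on a list drawn up by function. This list and the other gene lists below were chosen with earlier results of these data known, so their counts are descriptions. All 42 were found among 55487 features, and all 42 passed the filter that left 12364 genes for testing. The data are bulk RNA sequencing of 12 samples of mouse natural killer (NK) cells that had all been primed with the cytokine IL-15, and the study asked how cells that do and do not express interferon gamma differ after the activating receptor NK1.1 is engaged. Every sample, controls included, carries the strain label B6.129S4-Ifngtm3.1Lky/J and the genotype label mut/mut, a strain whose interferon gamma gene (Ifng) reports through a yellow fluorescent protein (YFP). The 3 groups were unstimulated cells with no stimulation time given, cells given anti-NK1.1 for 6 hours that were YFP-, and cells given anti-NK1.1 for 6 hours that were YFP+, with 4 samples in each. The titles of all 12 samples carry "HD IL-15" without spelling out HD, and the labels give no age, no IL-15 dose and no YFP class for the unstimulated cells. In each group the samples are named f2, m2, m3 and m4. The labels do not say whether the same name marks the same mouse, nor that the 4 samples of a group are separate mice, so p-values measure only the spread between these samples.

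Genes of this kind are switched on late in each division cycle. Cyclin B bound to the kinase CDK1 drives entry into mitosis, Aurora and Polo kinases build the spindle and correct its attachments to the kinetochores, the spindle assembly checkpoint holds the cycle until every chromosome is attached, and the anaphase-promoting complex (APC/C) then destroys cyclin B. IL-15 is a growth and survival factor that makes NK cells divide, and transcripts of these genes are widely used as marks of dividing cells.

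Many promoters of G2/M genes hold a cell cycle genes homology region (CHR) close to the start of transcription together with upstream CCAAT boxes. As background, the CHR is bound by the MuvB complex, CCAAT boxes are bound by the factor NF-Y, and E2F elements are typical of genes of the G1/S transition. Because nearly all members moved the same way below, the promoters of 8 members are printed: from each role group the member with the lowest adjusted p for YFP+ against YFP- cells that had a promoter in the RefSeq table. Each is the window from 250 bases before to 50 bases after the annotated start, on the gene's own strand, 5′ to 3′, from RefSeq on GRCm38.p6. Capitals mark CHR matches (TTTGAA or TTCGAA) and CCAAT boxes (CCAAT), each on either strand, so that TTCAAA and ATTGG are matches read from the other strand. Where a window has no capitals, none of the motifs searched is in it.
Ccnb2: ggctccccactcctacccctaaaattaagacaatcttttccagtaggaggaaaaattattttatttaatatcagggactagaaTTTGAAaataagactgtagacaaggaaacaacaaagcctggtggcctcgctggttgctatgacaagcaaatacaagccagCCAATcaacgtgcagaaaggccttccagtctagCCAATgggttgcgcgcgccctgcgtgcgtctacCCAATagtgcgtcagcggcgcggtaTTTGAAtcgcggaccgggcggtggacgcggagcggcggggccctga
Bub1b: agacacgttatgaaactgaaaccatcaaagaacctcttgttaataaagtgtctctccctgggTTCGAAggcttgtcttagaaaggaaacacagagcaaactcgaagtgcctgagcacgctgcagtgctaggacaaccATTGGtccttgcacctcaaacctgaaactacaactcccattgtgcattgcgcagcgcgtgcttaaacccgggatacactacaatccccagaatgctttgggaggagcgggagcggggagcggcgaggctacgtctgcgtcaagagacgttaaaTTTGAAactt
Birc5: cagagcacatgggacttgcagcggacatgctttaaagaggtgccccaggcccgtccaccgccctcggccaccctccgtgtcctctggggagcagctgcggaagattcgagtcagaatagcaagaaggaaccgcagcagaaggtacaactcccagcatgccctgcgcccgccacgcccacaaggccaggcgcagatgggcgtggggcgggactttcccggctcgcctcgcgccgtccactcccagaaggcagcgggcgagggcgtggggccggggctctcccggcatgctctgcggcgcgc
Cdc20: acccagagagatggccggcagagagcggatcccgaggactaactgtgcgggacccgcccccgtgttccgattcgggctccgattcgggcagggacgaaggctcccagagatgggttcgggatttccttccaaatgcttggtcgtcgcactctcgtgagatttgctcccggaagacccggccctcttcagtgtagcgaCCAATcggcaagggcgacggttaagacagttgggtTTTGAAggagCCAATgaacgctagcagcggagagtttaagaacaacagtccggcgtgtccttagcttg
Cenpa: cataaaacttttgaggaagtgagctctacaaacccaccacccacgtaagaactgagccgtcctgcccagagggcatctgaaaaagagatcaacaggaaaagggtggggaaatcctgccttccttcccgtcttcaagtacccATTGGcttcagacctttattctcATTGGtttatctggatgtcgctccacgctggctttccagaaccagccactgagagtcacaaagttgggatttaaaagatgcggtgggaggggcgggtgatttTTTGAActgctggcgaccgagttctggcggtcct
Kif11: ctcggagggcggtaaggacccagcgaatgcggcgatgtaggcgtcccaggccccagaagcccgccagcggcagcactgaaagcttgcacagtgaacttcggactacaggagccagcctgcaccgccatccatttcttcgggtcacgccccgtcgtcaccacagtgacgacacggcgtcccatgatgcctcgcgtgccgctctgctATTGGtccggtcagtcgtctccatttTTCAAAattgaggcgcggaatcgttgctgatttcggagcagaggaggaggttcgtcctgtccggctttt
Racgap1: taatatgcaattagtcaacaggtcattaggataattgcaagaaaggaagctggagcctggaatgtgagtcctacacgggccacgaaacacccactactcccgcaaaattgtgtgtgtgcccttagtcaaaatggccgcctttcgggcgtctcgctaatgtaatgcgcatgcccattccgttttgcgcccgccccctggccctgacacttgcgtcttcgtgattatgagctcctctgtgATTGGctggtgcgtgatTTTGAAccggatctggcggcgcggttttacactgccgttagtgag
Mki67: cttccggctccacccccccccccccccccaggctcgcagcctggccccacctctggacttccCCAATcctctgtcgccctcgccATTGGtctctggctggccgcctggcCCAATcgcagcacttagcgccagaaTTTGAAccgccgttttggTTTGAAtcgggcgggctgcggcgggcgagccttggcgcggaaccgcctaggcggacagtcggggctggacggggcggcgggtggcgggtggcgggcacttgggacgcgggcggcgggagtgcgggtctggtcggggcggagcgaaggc
The windows lie at chr9:70421505-70421804, minus strand (Ccnb2), chr2:118597961-118598260, plus strand (Bub1b), chr11:117848987-117849286, plus strand (Birc5), chr4:118437294-118437593, minus strand (Cdc20), chr5:30666636-30666935, plus strand (Cenpa), chr19:37376132-37376431, plus strand (Kif11), chr15:99651607-99651906, minus strand (Racgap1) and chr7:135716330-135716629, minus strand (Mki67). Promoters were found for 35 of the 42 members, and not for Ccna2, Aurkb, Kif20a, Tpx2, Cdc25c, Foxm1 and Incenp.

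A CHR match was present in 28 of the 35 member promoters (80.0%), against 19.4% of all 27025 promoters in the table and 14.4% of the promoters of genes tested here. Within 50 bases of the start it was present in 26 of 35 (74.3%), against 5.28% of all promoters. CCAAT boxes were present in 27 of 35 (77.1%), against 37.9% of all promoters. An E2F element (TTTCCCGC, TTTCGCGC, TTTGCCGC or TTTGGCGC on either strand) was present in 1 of 35, the promoter of Cdk1, or 2.86% against 2.32% of all promoters and 32.5% of the promoters of 40 DNA replication and G1/S genes. In Racgap1 the capital TTTGAA lies 6 bases and in Cenpa 17 bases past the start, in Bub1b it lies 41 bases past the start, and in Cdc20 it lies 18 bases before it. Each motif was counted wherever it occurred, overlaps with other motifs included. The 7 member promoters with no CHR match were those of Ccnb1, Birc5, Nusap1, Cenpe, Nuf2, Mad2l1 and Cks2. Members with and without a CHR match had median log2 fold changes of -1.53 and -1.74 for YFP+ against YFP- cells, and of -1.06 and -0.44 for YFP- against unstimulated cells. These are descriptions of letters in a window and of 7 genes, with no test.

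**Figure D1:**
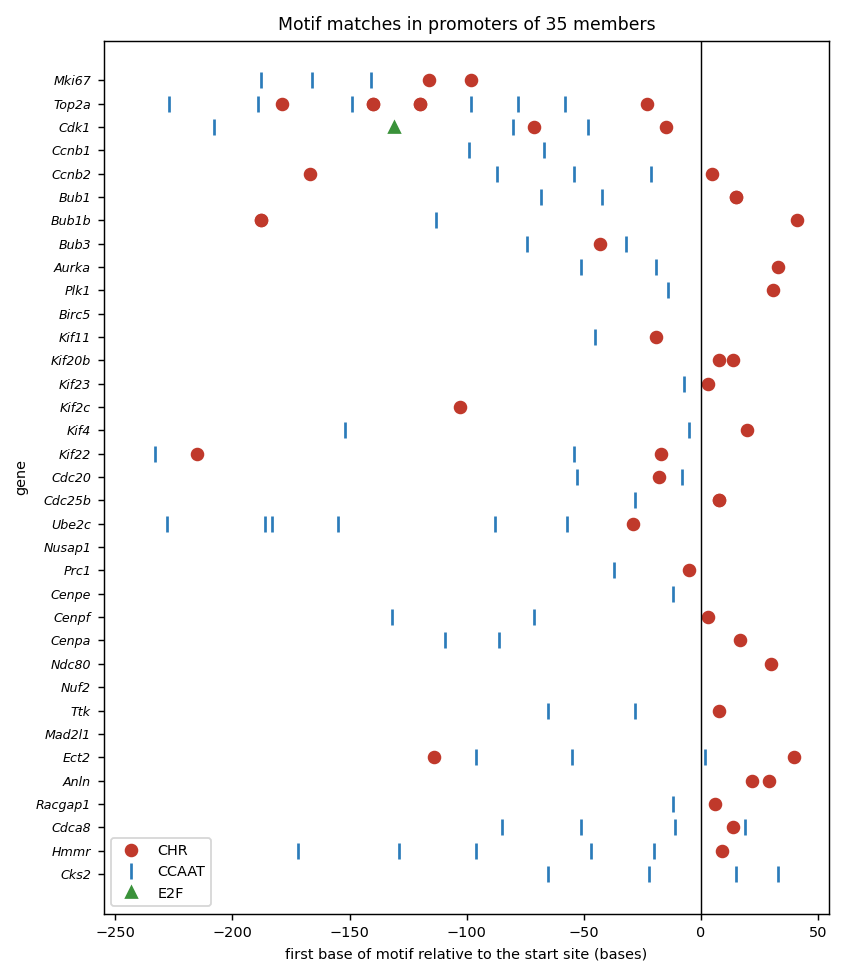
Motif matches in the 35 member promoters. The horizontal axis is the first base of each match relative to the annotated start in bases, each line is a gene, circles are CHR matches, ticks are CCAAT boxes and the triangle is the E2F element of Cdk1. Circles gather around the start, with 26 of 35 genes having one within 50 bases of it, and most ticks lie upstream.

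Library totals ran from 32.1 to 54.2 M reads. Levels are given in CPM, reads of a gene per 1e+06 reads of its library, and 3 reads correspond to 0.0553 to 0.0933 CPM. The 11 NK markers were all detected in every sample, with sums between 19588 and 23597 CPM when unstimulated, between 22519.9 and 27304 CPM among YFP- and between 31735 and 44122 CPM among YFP+ samples. Klrb1c, which encodes NK1.1 itself, lay at 290.2 to 327, 57.6 to 86.6 and 3.70 to 8.97 CPM in the same order. Single NK markers ran in different directions, and Gzmb, granzyme B, weighed most in the stimulated sums, at 5121 to 6693, 11558 to 13688 and 21073 to 28337 CPM. The activating receptor gene Ncr1 lay at 244 to 249, 182 to 245 and 105 to 138 CPM, Klrd1 at 358 to 415, 244 to 289 and 150.4 to 178 CPM, and the transcription factor gene Eomes at 102 to 115, 57.5 to 84.3 and 38.3 to 43.0 CPM, each lowest in YFP+ samples. Gzma, granzyme A, lay at 7843 to 9334, 3769 to 5124 and 3875 to 4773 CPM. The 8 T cell markers summed to 52.8 to 113, 68.1 to 93.9 and 63.9 to 96.1 CPM, within which Trac lay at 6.83 to 8.47, 27.6 to 41.9 and 40.4 to 54.5 CPM, Cd3g at 30.9 to 79.4, 24.4 to 41.7 and 11.7 to 31.9 CPM, and Cd3d at 14.2 to 25.9, 12.8 to 20.6 and 7.25 to 13.8 CPM. The other 5, Cd3e among them, stayed at or below 1.49 CPM. The 6 B cell markers summed to 131 to 189, 174 to 324 and 57.1 to 168 CPM, almost all of it Ighm, with Ms4a1 and Pax5 at 3 reads or fewer in every sample. Sums for the 5 markers of other innate lymphoid cells were 42.4 to 49.4, 54.1 to 99.0 and 20.1 to 57.2 CPM, mostly Gata3 and Cd200r1. Il7r reached at most 2.47, 1.69 and 0.166 CPM, Il1rl1 at most 0.185, 0.507 and 1.88 CPM. The 5 dendritic cell markers summed to 2.18 to 3.57, 18.8 to 22.1 and 7.05 to 13.5 CPM. Within these, Zbtb46 lay at 1.33 to 1.76, 13.3 to 17.4 and 5.19 to 11.3 CPM, and Xcr1 at 0.828 to 1.84, 3.85 to 6.18 and 1.41 to 2.18 CPM. Flt3 and Clec9a stayed at or below 0.184 CPM, and Siglech at 3 reads or fewer in every sample. The 8 myeloid markers reached at most 4.34 CPM, with Adgre1, S100a8 and S100a9 at 3 reads or fewer. Features from ribosomal RNA and its repeats took between 27.4% and 35.3% of reads when unstimulated, between 15.9% and 30.3% among YFP- and between 13.7% and 29.8% among YFP+ samples. The part of these marker sums in the results was not tested. With the ribosomal features left out 40, 33 and 41 members were lower in the 3 comparisons below, against 21.7%, 27.9% and 39.7% of all genes.

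Summed over the 42 genes, transcript levels were lower at each step from unstimulated to YFP- to YFP+ cells. The sums were 2925, 2876, 3056 and 2398 CPM in unstimulated samples f2, m2, m3 and m4, the order used for all sample values below. They were 1853, 1787, 1354 and 1369 CPM in YFP- samples and 888, 895, 704 and 635 CPM in YFP+ samples. No sample of one group overlapped another group, and the means of 2814 ± 288, 1591 ± 266 and 781 ± 131 CPM (SD, n = 4 each) put YFP- cells at 56.5% and YFP+ cells at 27.7% of the unstimulated mean. In bulk samples, fewer dividing cells and less of these transcripts per cell cannot be told apart.

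The question of how cells that made interferon gamma differ from stimulated cells that did not is answered by YFP+ against YFP-. Of the 42 genes, 40 were lower in YFP+ cells, 0 were higher, and Cdk1 and Bub3 did not pass the test (limma on log2 CPM with Benjamini-Hochberg adjustment over all 12364 genes, adjusted p under 0.05). At an unadjusted p under 0.05 the count of higher members in limma was likewise 0 in each of the 3 comparisons, as it was with voom weights. Among all genes tested, 18.5% were lower and 3.28% higher, or 12.1% lower and 12.2% higher when samples were centred on their medians. In 39 members all 4 YFP+ samples lay below all 4 YFP- samples, against 17.8% of all genes. Their median log2 fold change was -1.54, against -0.19 for all genes, and the members stood -1.36 from that median. Log2 fold changes for single genes are given on the scale of the deposited values. The median of all genes moved with the scaling, to -0.04 with trimmed-mean scaling and 0.07 with median centring.

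Both stimulated groups differ from unstimulated cells in NK1.1 engagement and in selection by YFP class, which cannot be told apart. For YFP- against unstimulated cells, 28 members were lower, 0 were higher and 14 did not pass. Across all genes tested 20.9% were lower and 30.2% higher, or 27.9% lower and 24.9% higher with ribosomal features left out. All 4 YFP- samples lay below all 4 unstimulated samples in 28 members, against 21.7% of all genes. The members' median was -0.84, against 0.14 for all genes, a distance of -0.97. For YFP+ against unstimulated cells 41 members were lower, 0 were higher and Bub3 did not pass, while 33.3% of all genes were lower and 27.5% higher. Complete separation below the unstimulated samples was found for 41 members, against 30.8% of all genes, and the median was -2.47, against -0.03 for all genes. The 3 comparisons use the same 12 samples, each sharing 1 group with each of the others, and they are given side by side for that reason.

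**Figure D2:**
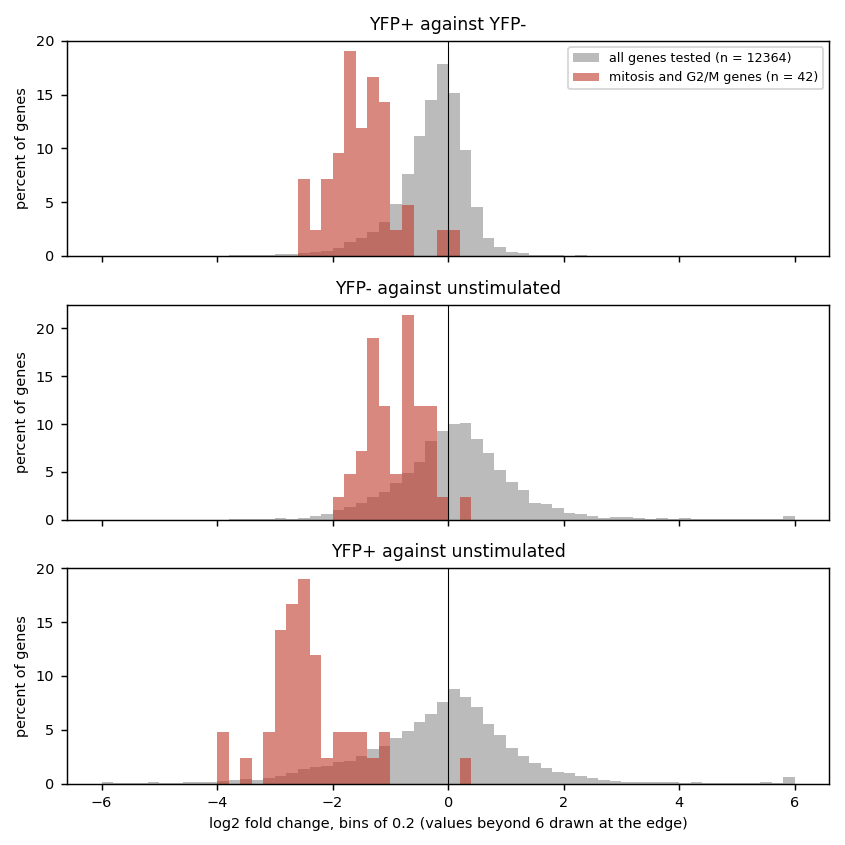
Log2 fold changes of the 42 genes (red) and of all 12364 genes tested (grey) in the 3 comparisons. The vertical axis is the percent of each set of genes in bins of the log2 fold change. The red distribution lies left of the grey one in each panel, with medians of -1.54, -0.84 and -2.47 against -0.19, 0.14 and -0.03.

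**Figure D3:**
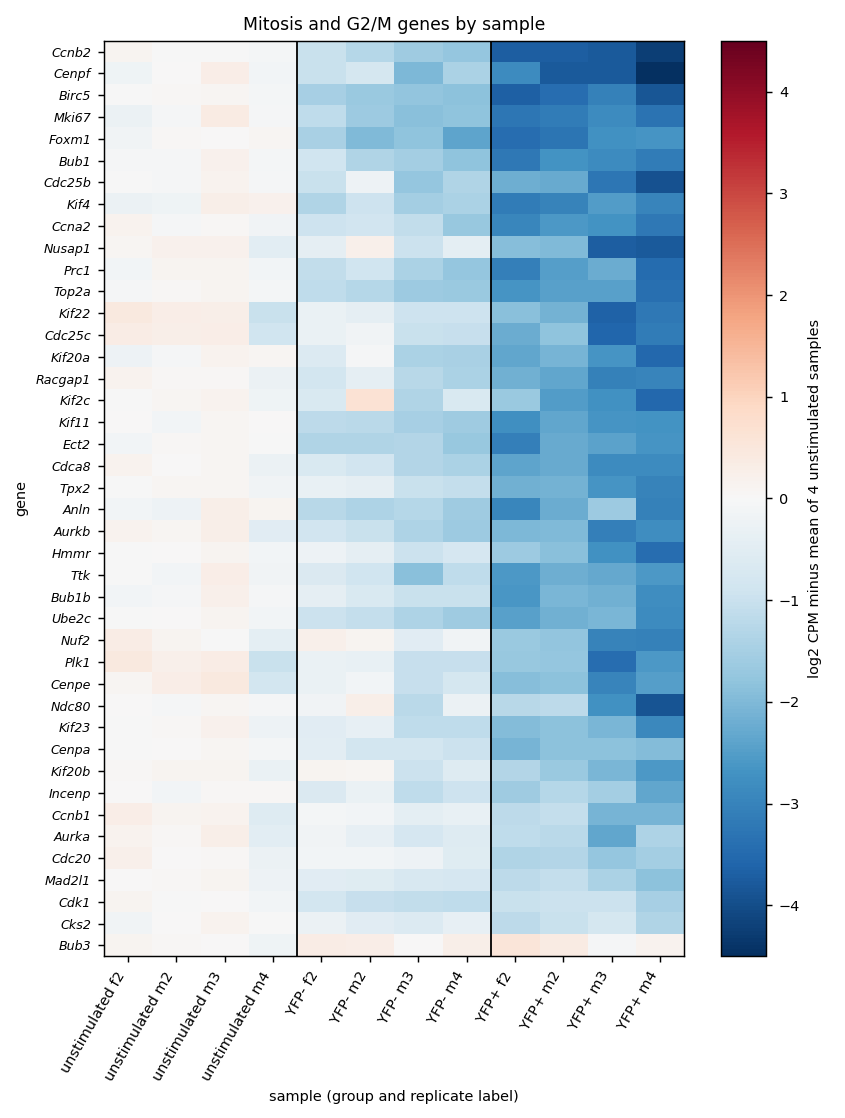
Each of the 42 genes (rows) in each of the 12 samples (columns), as log2 CPM minus the mean of the 4 unstimulated samples, with genes ordered by their YFP+ mean. Colour runs from white in unstimulated samples to pale blue in YFP- and dark blue in YFP+ samples in most rows. Some YFP- samples are not blue, such as m2 in Kif2c, Nusap1 and Ndc80, and f2 and m2 in Nuf2 and Kif20b. Both stimulated groups are alike in colour in Cdk1, and Bub3 at the bottom is not blue in stimulated samples. Unstimulated m4 is bluer than its group in rows such as Plk1, Kif22, Cdc25c and Cenpe.

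The engine of mitotic entry, the cyclin and CDK1 complex with its activators, had 8 members, of which 7 were lower in YFP+ than in YFP- cells and 6 lower in YFP- than in unstimulated cells. Ccnb2 (ENSMUSG00000032218, chr9:70407692-70421547, minus strand), a B-type cyclin that partners CDK1, had the largest fall of all 42 between unstimulated and YFP+ cells. It measured 195, 176, 176 and 170.0 CPM in unstimulated, 88.7, 73.7, 58.8 and 53.3 CPM in YFP- and 13.5, 13.6, 12.9 and 9.52 CPM in YFP+ samples. The 3 groups did not overlap, and the YFP+ mean was 6.92% of the unstimulated mean. Its log2 fold change was -2.45 ± 0.17 (SE) for YFP+ against YFP- (adjusted p = 1.2e-06) and -1.41 ± 0.17 for YFP- against unstimulated (adjusted p = 1.6e-05). The promoter printed above holds 3 CCAAT boxes and 2 CHR matches, 167 bases before and 5 bases past the start.

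Ccnb1 (chr13:100778650-100786570, minus strand), the other major mitotic B cyclin, was not called at the first step. Unstimulated samples held 99.4, 88.9, 92.6 and 55.4 CPM, YFP- samples 77.3, 75.2, 60.7 and 65.2 CPM and YFP+ samples 36.1, 39.4, 19.3 and 19.1 CPM. The lowest unstimulated value, that of m4, lay below every YFP- value, and the log2 fold change of -0.24 ± 0.25 did not pass (adjusted p = 0.44), while with quantile normalization it was -0.49 and passed (adjusted p = 0.038). All YFP+ values lay below all YFP- values, with a log2 fold change of -1.36 ± 0.25 (adjusted p = 0.0018). Per kilobase of merged exons, the ratio of Ccnb1 to Ccnb2 lay between 0.118 and 0.191 when unstimulated, between 0.316 and 0.444 among YFP- and between 0.543 and 1.05 among YFP+ samples. The 3 ranges did not overlap. A processed pseudogene, Ccnb1-ps, is annotated separately at 0.187 to 1.34 CPM, and how reads shared with it were divided is not given in the sources used here.

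Cdk1 (ENSMUSG00000019942, chr10:69335146-69352938, minus strand), the kinase itself, was lower in both stimulated groups than in unstimulated cells and was not called between the stimulated groups. Its samples read 161, 143, 149 and 134 CPM unstimulated, 83.0, 71.0, 67.2 and 66.1 CPM YFP- and 72.6, 75.1, 75 and 52.4 CPM YFP+. Every stimulated sample lay below every unstimulated one, while YFP- and YFP+ samples overlapped. The log2 fold change was -1.04 ± 0.14 for YFP- against unstimulated (adjusted p = 3.8e-05) and -0.07 ± 0.14 for YFP+ against YFP- (adjusted p = 0.74), the latter turning to 0.05 without YFP+ m4, the lowest YFP+ sample, and to 0.03, 0.08 and 0.19 with quantile normalization, trimmed-mean scaling and median centring. The ratio of Ccnb2 to Cdk1 per kilobase lay between 3.81 and 4.08 when unstimulated, between 2.60 and 3.44 among YFP- and between 0.556 and 0.601 among YFP+ samples. Per kilobase, Ccnb2 exceeded its kinase in every unstimulated and YFP- sample and lay below it in every YFP+ sample. That order rests on merged exon lengths of 1531 bases for Ccnb2 and 4934 for Cdk1, which can differ from the transcripts expressed.

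Ccna2, cyclin A, which works with CDK2 in S phase and with CDK1 in G2, measured 71.6, 61.8, 66.1 and 58.1 CPM, 33.5, 35.3, 30 and 19.8 CPM and 8.38, 10.6, 9.81 and 6.94 CPM in the 3 groups, which did not overlap. Its log2 fold change was -1.71 ± 0.19 for YFP+ against YFP- (adjusted p = 5.0e-05). Its exons share 510 bases, 12.5% of their length, with Exosc9 on the other strand. Cks2, a small CDK1-binding subunit, changed least among the called genes, from 51.6, 58.0, 63.4 and 56.9 CPM unstimulated to 47.9, 40.6, 37.5 and 44.4 CPM in YFP- and 25, 28.8, 33.5 and 22.6 CPM in YFP+ samples. Its groups did not overlap, and its log2 fold change for YFP+ against YFP- was -0.64 ± 0.14 (adjusted p = 0.0053). That call was lost with median centring (-0.38, adjusted p = 0.075) and quantile normalization (-0.44, adjusted p = 0.062), and the call for YFP- against unstimulated (adjusted p = 0.019) was lost without unstimulated m3 (adjusted p = 0.060), without YFP- m3 (adjusted p = 0.052) and with no filter on low genes (adjusted p = 0.051).

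The phosphatases that switch CDK1 on, Cdc25b and Cdc25c, were both lower in YFP+ than in YFP- cells. Cdc25b measured 17.9, 17.4, 20.1 and 17.5 CPM, 8.96, 15.5, 5.48 and 7.22 CPM and 3.94, 3.74, 1.88 and 1.18 CPM in the 3 groups. Its YFP- samples were uneven, with m2 high, but no group overlapped another. The log2 fold change was -1.84 ± 0.37 for YFP+ against YFP- (adjusted p = 0.0031) and -1.08 ± 0.37 for YFP- against unstimulated (adjusted p = 0.026), a call lost without unstimulated m3 (0.060), YFP- m3 (0.080) or YFP- m4 (0.068). Cdc25c measured 16.9, 16.4, 16.5 and 7.28 CPM, 11.0, 12.1, 6.77 and 6.63 CPM and 2.84, 3.85, 1.13 and 1.52 CPM. Unstimulated m4 stood far below the other 3 unstimulated samples and inside the YFP- range. YFP+ samples were all below YFP- samples, at a log2 fold change of -2.07 ± 0.39 (adjusted p = 0.0019), and the first step of -0.62 ± 0.39 did not pass (adjusted p = 0.20). Exons of Cdc25c share 12.7% of their length with Gm3550 on the other strand.

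Foxm1, the transcription factor that activates G2/M genes, had the largest fall of all members between unstimulated and YFP- cells. Values were 19.0, 22.5, 22.0 and 22.7 CPM unstimulated, 7.72, 5.39, 6.11 and 4.10 CPM YFP- and 1.98, 2.19, 3.26 and 3.39 CPM YFP+, with no overlap between groups. The log2 fold change was -1.92 ± 0.22 for YFP- against unstimulated (adjusted p = 1.2e-05) and -1.11 ± 0.22 for YFP+ against YFP- (adjusted p = 0.0029).

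**Figure D4:**
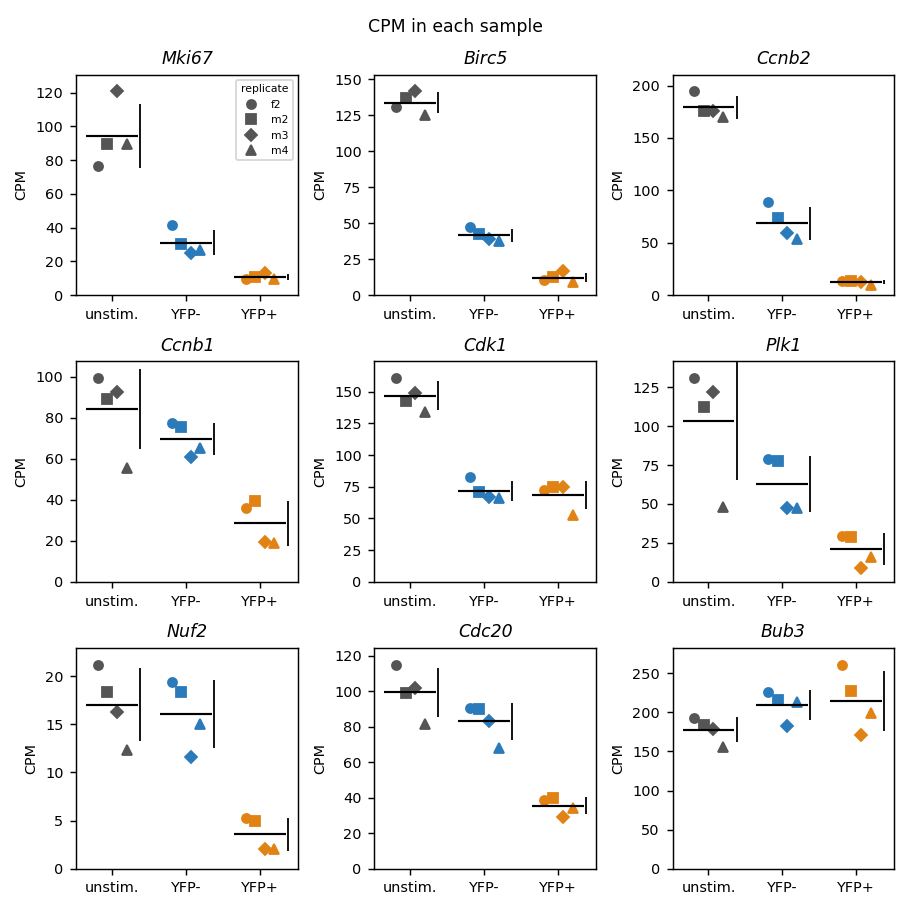
CPM of 9 members in each sample, with the group mean as a horizontal line and ± 1 SD (n = 4) as a vertical line. Marker shapes are the replicate names, and every vertical axis starts at 0. In Mki67, Birc5 and Ccnb2 all 3 groups stand apart, in Cdk1 the stimulated groups overlap below the unstimulated one, in Ccnb1, Nuf2 and Cdc20 the YFP+ samples stand below the other groups, unstimulated m4 of Plk1 lies with the YFP- samples, and in Bub3 the groups overlap.

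The 6 mitotic kinases were all lower in YFP+ than in YFP- cells, and 4 of the 6 were lower in YFP- than in unstimulated cells. Plk1, Polo-like kinase 1, which acts from mitotic entry to cytokinesis, measured 131, 112, 122 and 47.9 CPM unstimulated, 78.8, 77.4, 47.3 and 47.1 CPM YFP- and 29.6, 29.1, 8.89 and 16.0 CPM YFP+. Unstimulated m4 fell among the YFP- samples, YFP- f2 and m2 stood above m3 and m4, and the YFP+ samples were below all YFP- samples. Its log2 fold change was -1.70 ± 0.39 for YFP+ against YFP- (adjusted p = 0.0075). Without YFP+ m3 and m4 that value was -1.05 (adjusted p = 0.051). The first step was -0.67 ± 0.39 (adjusted p = 0.18), and it passed without unstimulated m4 (-1.0, adjusted p = 0.040), with quantile normalization (-0.92, adjusted p = 0.026) and with the ribosomal features left out (-0.85, adjusted p = 0.049).

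Aurka, the Aurora kinase of centrosomes and spindle poles, measured 67.1, 63.6, 72.9 and 43.3 CPM, 54.1, 47.1, 35.7 and 40.9 CPM and 27.4, 26.2, 11.9 and 23.1 CPM. Unstimulated m4 again lay inside the YFP- range, and all YFP+ samples lay below all YFP- samples. The log2 fold changes were -1.06 ± 0.25 for YFP+ against YFP- (adjusted p = 0.0088) and -0.46 ± 0.25 for YFP- against unstimulated (adjusted p = 0.14). The latter was called with the 8 samples of that comparison alone (adjusted p = 0.037), with quantile normalization (-0.71, adjusted p = 0.0056), with median centring (-0.60, adjusted p = 0.022) and with the ribosomal features left out (-0.65, adjusted p = 0.016). Ttk, the kinase MPS1 that starts checkpoint signalling at kinetochores, was among the least abundant members at 4.88, 4.55, 6.02 and 4.44 CPM, 3.16, 2.63, 1.31 and 2.22 CPM and 0.817, 1.07, 0.994 and 0.809 CPM. Its groups did not overlap, and it changed at both steps, by -1.15 ± 0.26 and -1.27 ± 0.26 (adjusted p = 0.0022 and 0.0033).

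The chromosomal passenger complex, which corrects wrong spindle attachments and later guides cytokinesis, consists of the kinase Aurora B, survivin, INCENP and borealin. All 4 genes were lower at both steps. Birc5, survivin (ENSMUSG00000017716, chr11:117849251-117855743, plus strand), fell most, from 131, 137, 142 and 125 CPM in unstimulated to 47.2, 42.2, 39.1 and 37.5 CPM in YFP- and 10.6, 12.2, 16.4 and 9.24 CPM in YFP+ samples. The groups lay far apart, with log2 fold changes of -1.69 ± 0.16 (adjusted p = 2.6e-06) and then -1.80 ± 0.16 (adjusted p = 1.0e-05). Its printed promoter holds no CHR match and no CCAAT box.

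Aurkb measured 92.3, 89.8, 101 and 58.6 CPM, 46.4, 41.3, 31.8 and 26.8 CPM and 20.5, 21.3, 9.97 and 12.2 CPM, with unstimulated m4 the lowest of its group but above every YFP- sample. It changed by -1.23 ± 0.27 and then -1.24 ± 0.27 on the log2 scale (adjusted p = 0.0017 and 0.0047). Cdca8, borealin, measured 149, 137, 144 and 110.4 CPM, 83.0, 73.3, 54.1 and 50.5 CPM and 26.1, 27.6, 18.8 and 18.8 CPM, and changed by -1.07 ± 0.19 and -1.50 ± 0.19 with no overlap between groups (adjusted p = 3.8e-04 and 1.2e-04). Incenp, the scaffold of the complex, kept more of its level, at 31.6, 28.7, 31.8 and 31.9 CPM, 19.6, 25, 14.1 and 16.1 CPM and 10.3, 12.8, 10.8 and 6.19 CPM. Its groups did not overlap either, and it changed by -0.76 ± 0.22 and -0.91 ± 0.22 (adjusted p = 0.010 and 0.0090). Per kilobase, Birc5 stood at 5.0 to 6.08 times Incenp when unstimulated, 2.15 to 3.54 times among YFP- and 1.22 to 1.93 times among YFP+ samples, ranges that did not overlap. The same ratio for Aurkb to Incenp, 2.7 to 4.67, 2.43 to 3.48 and 1.36 to 2.92, overlapped between all groups.

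Among the spindle assembly checkpoint and APC/C genes, 6 of 7 were lower in YFP+ than in YFP- cells and 5 of 7 lower in YFP- than in unstimulated cells. Bub3, a kinetochore adaptor of the checkpoint, was the exception at every step. Samples held 193, 184, 179 and 156 CPM unstimulated, 226, 216, 182 and 213 CPM YFP- and 261, 227, 171 and 199 CPM YFP+. The groups overlapped, and log2 fold changes were 0.23 ± 0.14 for YFP- against unstimulated (adjusted p = 0.17, and -0.03 with quantile normalization), 0.03 ± 0.14 for YFP+ against YFP- (adjusted p = 0.91) and 0.25 ± 0.14 for YFP+ against unstimulated (adjusted p = 0.12). The last became a rise of 0.38 with median centring (adjusted p = 0.0060) and with trimmed-mean scaling (adjusted p = 0.023), and of 0.36 without YFP+ m3 (adjusted p = 0.023).

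Its partners did fall. Bub1, the kinase that recruits checkpoint proteins, measured 12.8, 12.9, 15.3 and 12.3 CPM, 7.20, 5.17, 4.58 and 3.83 CPM and 1.43, 2.03, 1.88 and 1.49 CPM, with no overlap and steps of -1.39 ± 0.20 and -1.58 ± 0.20 (adjusted p = 7.9e-05 and 1.3e-04). Bub1b, which encodes the APC/C inhibitor BUBR1, measured 20.4, 21.5, 26.1 and 21.6 CPM, 16.8, 13.7, 11.1 and 11.1 CPM and 3.64, 5.42, 4.97 and 3.17 CPM, and changed by -0.78 ± 0.20 and -1.63 ± 0.20 (adjusted p = 0.0047 and 8.6e-05). Mad2l1, which encodes MAD2, the protein that holds CDC20 inactive, measured 70.3, 72.9, 76.3 and 59.8 CPM, 49.0, 48.1, 42 and 40.9 CPM and 30.9, 33.3, 26.1 and 19.4 CPM. Its groups were separate but closer together than those of Bub1, at -0.63 ± 0.16 and -0.74 ± 0.16 (adjusted p = 0.0054 and 0.0056).

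Cdc20, the APC/C activator that the checkpoint restrains, measured 115, 98.9, 102 and 81.7 CPM unstimulated, 90.6, 90.0, 83.2 and 68.3 CPM YFP- and 38.7, 40.0, 29.3 and 34.5 CPM YFP+. Unstimulated and YFP- samples overlapped, while every YFP+ sample lay below every YFP- sample. The log2 fold change was -0.26 ± 0.15 at the first step (adjusted p = 0.16) and -1.22 ± 0.15 at the second (adjusted p = 8.2e-05). With quantile normalization the first step was called too, at -0.50 (adjusted p = 0.0026), as it was with median centring (-0.40, adjusted p = 0.016) and with the ribosomal features left out (-0.44, adjusted p = 0.0087). Ube2c, the ubiquitin-conjugating enzyme of the APC/C, was the most abundant member in CPM in unstimulated cells, at 267, 278, 300.4 and 249.8 CPM, against 139, 129, 103 and 91.3 CPM in YFP- and 50.7, 60.5, 65.1 and 38.3 CPM in YFP+ samples. It changed by -1.26 ± 0.17 and -1.12 ± 0.17 with no overlap (adjusted p = 5.5e-05 and 5.6e-04). Of its exon bases, 22.8% are shared with Tnnc2 on the other strand.

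All 5 centromere and kinetochore genes were lower in YFP+ than in YFP- cells, and 2 of the 5, Cenpa and Cenpf, were called lower in YFP- than in unstimulated cells. Cenpa, the histone H3 variant that marks centromeres, measured 187, 194, 205 and 181 CPM, 137, 107, 108 and 97.6 CPM and 44.6, 53.9, 53 and 49.3 CPM. Its groups did not overlap, and its standard error was the smallest among the members, with steps of -0.78 ± 0.12 and -1.16 ± 0.12 (adjusted p = 1.5e-04 and 3.7e-05). Cenpf, a kinetochore protein that accumulates in G2, measured 38, 44.2, 53 and 40.1 CPM, 22.0, 25.2, 10.9 and 16.2 CPM and 6.15, 3.17, 3.18 and 1.46 CPM, and its step of -2.51 ± 0.36 was the largest of the 42 for YFP+ against YFP- (adjusted p = 2.9e-04).

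Nuf2 and Ndc80 encode 2 subunits of the NDC80 complex, which holds microtubules at the kinetochore. Nuf2 measured 21.2, 18.4, 16.3 and 12.3 CPM unstimulated, 19.4, 18.4, 11.6 and 15.0 CPM YFP- and 5.23, 4.92, 2.07 and 2.02 CPM YFP+. Unstimulated and YFP- samples covered much the same range, with a log2 fold change of -0.08 ± 0.32 (adjusted p = 0.85), and all YFP+ samples lay below both, at -2.29 ± 0.32 against YFP- (adjusted p = 2.4e-04). Ndc80 measured 20.0, 19.2, 20.8 and 18.8 CPM, 17.5, 23.5, 8.57 and 16.5 CPM and 8.20, 8.76, 2.98 and 1.31 CPM. YFP+ m2 lay above YFP- m3, so the groups overlapped, and the log2 fold change of -1.92 ± 0.49 had the largest standard error of the members (adjusted p = 0.014). Without YFP+ m3 and m4, the 2 lowest samples, it was -0.87 (adjusted p = 0.052). Cenpe, the kinesin that carries chromosomes to the spindle equator, measured 47.8, 55.3, 60.1 and 25.1 CPM, 36.4, 41.1, 21.7 and 25.8 CPM and 11.7, 12.5, 5.64 and 8.06 CPM. Unstimulated m4 was low in it, too. Its second step was -1.74 ± 0.31 (adjusted p = 0.0015), and its first, -0.56 ± 0.31 (adjusted p = 0.15), became -0.84 (adjusted p = 0.029) without unstimulated m4. That step also passed with quantile normalization (-0.77, adjusted p = 0.017), with median centring (-0.70, adjusted p = 0.029) and with the ribosomal features left out (-0.74, adjusted p = 0.026).

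Every one of the 11 spindle motors and microtubule binders was lower in YFP+ than in YFP- cells, with log2 fold changes from -2.45 to -1.25 and no overlap between the groups. In YFP- against unstimulated cells 6 of the 11 were lower: Kif11, Kif4, Kif20a, Kif23, Tpx2 and Prc1. Kif11, the motor that pushes spindle poles apart, measured 24.5, 22.3, 25.9 and 24.6 CPM, 10.7, 10.5, 8.66 and 8.07 CPM and 3.62, 4.77, 3.81 and 3.73 CPM. Its samples were tightly grouped, and it changed by -1.37 ± 0.15 and -1.25 ± 0.15 (adjusted p = 6.4e-06 and 7.0e-05). Kif4, a chromosome-bound kinesin, measured 10.6, 11.1, 15.4 and 14.5 CPM, 5.01, 6.73, 4.45 and 4.77 CPM and 1.43, 1.59, 2.21 and 1.62 CPM, and changed by -1.30 ± 0.20 and -1.61 ± 0.20 (adjusted p = 1.2e-04 and 1.0e-04). Its exons share 15.1% of their length with Pdzd11 on the other strand. Tpx2, which activates Aurora A on the spindle, measured 38.4, 40.4, 41.0 and 34.2 CPM, 30.5, 29.1, 19.4 and 18.4 CPM and 8.62, 8.89, 6.10 and 4.73 CPM. It changed by -0.70 ± 0.22 and -1.79 ± 0.22 (adjusted p = 0.018 and 1.1e-04), and the first of these calls was lost without YFP- m3 (adjusted p = 0.053) or YFP- m4 (adjusted p = 0.062).

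The other 5 of these genes overlapped or nearly met between unstimulated and YFP- cells. Nusap1, a microtubule bundler near chromosomes, measured 55.2, 59.4, 59.7 and 37.5 CPM, 39.0, 61.0, 26.6 and 38.3 CPM and 14.0, 13, 3.92 and 3.83 CPM. YFP- m2 lay above every unstimulated sample, and YFP+ m3 and m4 far below YFP+ f2 and m2. The second step was -2.45 ± 0.41 (adjusted p = 9.2e-04) and the first -0.40 ± 0.41 (adjusted p = 0.44). Kif22, a chromosome-arm motor, measured 104, 93.8, 90.5 and 37.5 CPM, 60.8, 57.5, 39.5 and 39.5 CPM and 20.9, 17.2, 6.10 and 8.21 CPM. Unstimulated m4 was below all 4 YFP- samples. Its second step was -2.06 ± 0.39 (adjusted p = 0.0022), and its first was -0.65 ± 0.39 (adjusted p = 0.18), or -0.99 (adjusted p = 0.040) without unstimulated m4 and -0.90 (adjusted p = 0.030) with quantile normalization.

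Kif2c, a kinesin that takes microtubules apart at centromeres, measured 12.0, 12.9, 13.6 and 10.5 CPM, 7.54, 19.3, 4.82 and 7.61 CPM and 3.84, 2.10, 1.82 and 1.03 CPM. YFP- m2 stood above every unstimulated sample and the other 3 YFP- samples below them. The second step was -2.11 ± 0.40 (adjusted p = 0.0023), and the first was -0.51 ± 0.40 (adjusted p = 0.31), or -0.90 (adjusted p = 0.049) without YFP- m2. Kif20b, a late mitotic kinesin, measured 15.7, 16.8, 16.4 and 12.5 CPM, 16.4, 16.1, 7.86 and 10.2 CPM and 6.19, 4.85, 3.62 and 2.55 CPM. YFP- f2 and m2 lay within the unstimulated range, m3 and m4 below it. Its second step was -1.56 ± 0.28 (adjusted p = 0.0016) and its first -0.34 ± 0.28 (adjusted p = 0.33). Hmmr, a spindle-associated hyaluronan receptor, measured 23.7, 24.4, 26.3 and 21.9 CPM, 20.5, 18.1, 12.3 and 14.4 CPM and 7.66, 6.53, 3.65 and 2.21 CPM. Its 4 YFP- samples lay below all unstimulated ones, yet the first step of -0.58 ± 0.32 did not pass (adjusted p = 0.14). It did with the 8 samples of that comparison alone (adjusted p = 0.0083), with quantile normalization (-0.77, adjusted p = 0.022), with median centring (-0.72, adjusted p = 0.035) and with the ribosomal features left out (-0.77, adjusted p = 0.031). Its second step was -1.84 ± 0.32 (adjusted p = 0.0011).

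The 6 cytokinesis genes, 3 of which are also spindle motors or binders, were lower at both steps. Racgap1, part of the centralspindlin complex that positions the cleavage furrow, measured 77.8, 72.8, 72.6 and 57.5 CPM, 39.6, 52.6, 29.2 and 26.1 CPM and 15.7, 13.9, 8.43 and 8.93 CPM, with no overlap and steps of -0.97 ± 0.24 and -1.65 ± 0.24 (adjusted p = 0.0045 and 3.7e-04). Kif23, its kinesin partner, measured 23.4, 24.8, 27.6 and 20.7 CPM, 16.8, 18.7, 10.9 and 10.8 CPM and 6.17, 6.64, 5.77 and 3.20 CPM, and changed by -0.79 ± 0.24 and -1.40 ± 0.24 (adjusted p = 0.015 and 0.0012). Without YFP- m4 the first of these calls was lost (-0.67, adjusted p = 0.053). Ect2, the exchange factor that switches on RhoA at the furrow, measured 10.8, 12.3, 12.6 and 11.6 CPM, 4.65, 4.58, 4.79 and 3.59 CPM and 1.39, 2.47, 2.21 and 1.87 CPM, and changed by -1.43 ± 0.19 and -1.17 ± 0.19 (adjusted p = 3.6e-05 and 6.9e-04). The 3 groups stood apart in all 3 of these genes.

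Prc1, which bundles the central spindle, measured 18.9, 22.2, 22.1 and 18.6 CPM, 9.50, 11.0, 7.63 and 6.06 CPM and 2.39, 3.65, 4.28 and 1.84 CPM. It changed by -1.29 ± 0.26 and -1.53 ± 0.26 with no overlap (adjusted p = 9.4e-04 and 9.0e-04). Anln, anillin, a scaffold of the contractile ring, had the lowest level per kilobase of the 42 in every group and measured 6.85, 6.34, 8.91 and 8.11 CPM, 3.16, 2.88, 3.09 and 2.49 CPM and 0.961, 1.57, 2.40 and 0.902 CPM. It changed by -1.37 ± 0.28 and -1.1 ± 0.28 (adjusted p = 0.0011 and 0.012), and the second call was lost with median centring (-0.83, adjusted p = 0.055) and quantile normalization (-0.72, adjusted p = 0.076). Kif20a, a kinesin of the central spindle, measured 14.4, 16.2, 18.6 and 18.0 CPM, 10.9, 16.0, 6.22 and 6.12 CPM and 3.29, 3.96, 2.65 and 1.43 CPM. YFP- m2 lay inside the unstimulated range, and the other 3 YFP- samples below it. It changed by -1.76 ± 0.33 at the second step (adjusted p = 0.0022). The first step, -0.89 ± 0.33 (adjusted p = 0.040), was lost without any 1 of unstimulated f2, m2, m3 or m4 (adjusted p = 0.051, 0.067, 0.087 and 0.082), without YFP- m3 or m4 (adjusted p = 0.11 and 0.12) and with no filter on low genes (adjusted p = 0.055). Of its exon bases, 29.3% are shared with Cdc23 on the other strand.

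Mki67 and Top2a, the usual markers of dividing cells, fell at both steps. Mki67 (ENSMUSG00000031004, chr7:135689784-135716361, minus strand) encodes Ki-67, which coats mitotic chromosomes, and measured 76.6, 89.5, 121 and 89.7 CPM unstimulated, 41.6, 30.3, 25.2 and 26.5 CPM YFP- and 9.71, 10.5, 13 and 9.27 CPM YFP+. The groups did not overlap, and the steps were -1.61 ± 0.19 and -1.53 ± 0.19 (adjusted p = 1.3e-05 and 9.7e-05). Top2a, the topoisomerase that untangles sister chromatids, measured 180.1, 194, 203 and 177 CPM, 85.4, 78.1, 60.5 and 59.6 CPM and 30, 34.4, 34.4 and 18.1 CPM. It changed by -1.43 ± 0.20 and -1.31 ± 0.20, again without overlap (adjusted p = 5.2e-05 and 4.1e-04).

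Across the 42 genes, the share of the unstimulated CPM left in YFP+ cells ran from 6.92% for Ccnb2, 7.96% for Cenpf and 9.05% for Birc5 to 46.8% for Cdk1, 47.8% for Cks2 and 120.4% for Bub3. In YFP- cells the share ran from 27.1% for Foxm1 to 94.5% for Nuf2 and 117% for Bub3. Levels per kilobase reordered with it. In unstimulated cells Ccnb2 (117 CPM per kilobase), Ube2c (105), Cks2 (83.0), Cdc20 (53.2) and Plk1 (47.0) led. In YFP+ cells Cks2 (39.7 CPM per kilobase), Bub3 (30.6), Ube2c (20.6), Cdc20 (19.1) and Cdk1 (13.9) led, and Ccnb2 stood at 8.09.

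**Figure D5:**
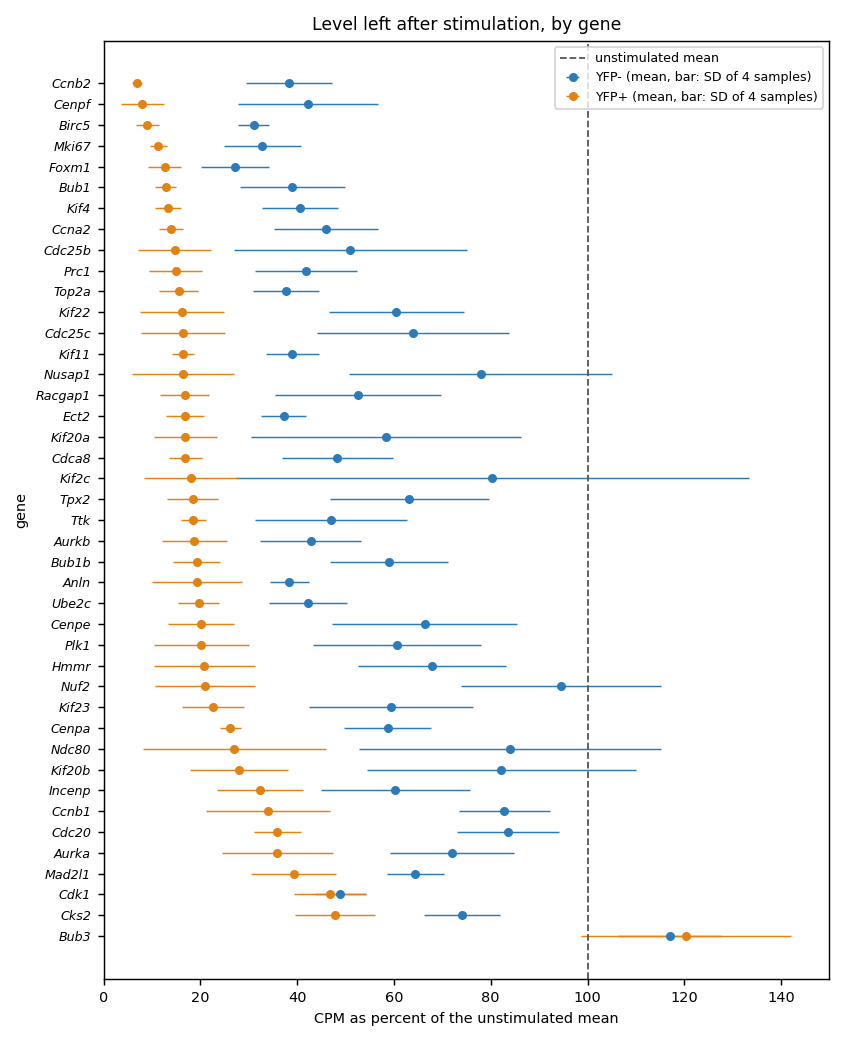
CPM of each of the 42 genes in YFP- (blue) and YFP+ (orange) cells as percent of the unstimulated mean (dashed line at 100), with bars for the SD of 4 samples. Orange points lie left of blue points except for Cdk1, where they nearly coincide, and Bub3, where both lie to the right of the line.

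In the 2 steps together, 27 members were lower both in YFP- against unstimulated and in YFP+ against YFP- cells, 13 passed the test in the second and not in the first, Cdk1 in the first and not in the second, and Bub3 in neither. Both steps share the YFP- samples. The shares of all genes tested that had these patterns were not counted. Aurka, Cdc20, Cenpe and Hmmr, among the 13, also passed in the first step with quantile normalization, median centring or the ribosomal features left out. Whether the steps differ in size was tested as YFP- against the midpoint of the other groups, a contrast chosen after the data had been seen. The test called 3 members above the midpoint, Nuf2 (log2 difference 1.1 ± 0.27, adjusted p = 0.014), Ccnb2 (0.52 ± 0.15, adjusted p = 0.023) and Cdc20 (0.48 ± 0.13, adjusted p = 0.018), and 1 below it, Cdk1 (-0.48 ± 0.12, adjusted p = 0.013). For all genes tested, 17.2% lay above and 4.13% below the midpoint, and 3 of 42 above is below that background. Each of these 4 calls was lost under at least 1 other setting, while some settings called more members. With the replicate block 9 were above and 1 below, with 21.3% of all genes above. Without YFP+ f2, 10 were above and 1 below, with 22.2% of all genes above. In the fit used for the calls, a difference in size between the steps was not shown for the other genes that passed in the second step alone.

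The samples of a group were not even. In YFP- cells f2 and m2 both stood above m3 and m4 in 36 of the 42 genes, an order found in 40.9% of all genes tested, and in YFP+ cells in 23 of 42, against 42% of all genes. Unstimulated samples had that order in 4 of 42, against 17.3% of all genes. YFP+ m4 was the lowest YFP+ sample in 26 of the 42. In unstimulated cells m4 was the lowest sample in 30 of the 42. The shares of all genes with m4 lowest were not counted, so these counts are not particular to the members. Unstimulated m4 had the highest share of ribosomal features in its group, 35.3%, while YFP+ m4, at 23.1%, lay inside its group's range. The part of these shares in the order was not tested. Without unstimulated m4, 30 members were lower in YFP- than in unstimulated cells, against 19.0% of all genes. Without YFP+ m3 and m4 together, 38 were lower in YFP+ than in YFP- cells, against 12.9% of all genes. The labels name no batch for these samples.

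Other genes of mitosis and the G2/M phase, outside the 42, were mostly lower too: of 68 tested, 50 were lower and 0 higher in YFP+ than in YFP- cells, and 49 were lower and 2 higher in YFP- than in unstimulated cells (limma, with 0 higher also at an unadjusted p under 0.05 and with voom in the first comparison, and 2 higher with median centring). The shares of all genes tested, against which this and the next lists are read, were 18.5% lower and 3.28% higher in YFP+ against YFP- cells and 20.9% lower and 30.2% higher in YFP- against unstimulated cells. The medians of the 68 were -1.29 and -0.94. Pimreg, a mitotic regulator, ranged over 108 to 121 CPM when unstimulated, 22.0 to 39.3 CPM among YFP- and 2.58 to 4.12 CPM among YFP+ samples, and changed by -3.13 ± 0.20 in YFP+ against YFP- cells (adjusted p = 1.0e-06). The 2 that were higher at the first step were Mad1l1, a checkpoint gene (1.15 ± 0.38, adjusted p = 0.021), and Zwint, a kinetochore gene (0.55 ± 0.17, adjusted p = 0.017). Of 19 condensin and cohesin genes, which shape and hold chromosomes, 13 were lower and 0 higher at each step in limma, also 0 higher at an unadjusted p under 0.05 and with voom. With median centring, where 12.1% of all genes were lower and 12.2% higher in YFP+ against YFP- cells, 6 of the 19 were lower. Ncapd2, a condensin subunit, changed by -1.65 ± 0.20 (adjusted p = 2.2e-05) and then by -1.41 ± 0.20 (adjusted p = 3.1e-04). Of the 52 DNA replication and G1/S genes, 39 were lower and 0 higher in YFP- against unstimulated cells (median -0.96), and 20 were lower and 0 higher in YFP+ against YFP- cells (median -0.46). At an unadjusted p under 0.05 limma gave 1 and 2 higher, voom gave 0 and 0, and with median centring 10 were lower and 4 higher in YFP+ against YFP- cells. Tk1, the thymidine kinase of S phase, changed by -2.23 ± 0.23 (adjusted p = 4.7e-06) and then by -1.47 ± 0.23 (adjusted p = 5.2e-04).

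The APC/C genes beyond Cdc20 and Ube2c mostly did not pass: of 18 including those, 4 were lower and 0 higher in YFP+ against YFP- cells (limma, with 1 higher at an unadjusted p under 0.05 and 0 with voom), and 3 were lower and 2 higher in YFP- against unstimulated cells. The counts of lower genes lay near the shares of all genes, 18.5% and 20.9%, and the 2 higher of 18 were fewer than the 30.2% of all genes. Anapc10, a subunit of the complex, ranged over 24.5 to 29.5 CPM when unstimulated, 37.5 to 42 CPM among YFP- and 42.5 to 51.6 CPM among YFP+ samples, a rise of 0.58 ± 0.11 at the first step (adjusted p = 0.0010). Cdc16 rose there too, by 0.96 ± 0.26 (adjusted p = 0.0069). Anapc11, another subunit, ranged over 248 to 276, 102 to 118 and 69.1 to 85.0 CPM in the same order. It changed by -1.22 ± 0.10 at the first step (adjusted p = 9.8e-07), and Anapc13 by -0.78 ± 0.20 (adjusted p = 0.0049). Of 23 genes of DREAM, MuvB and E2F with NF-Y, Foxm1 included, 8 were lower and 1 higher in YFP+ against YFP- cells. In YFP- against unstimulated cells 10 were lower and 4 higher. Over all genes 18.5% were lower and 3.28% higher in the former and 20.9% lower and 30.2% higher in the latter, so that 1 higher of 23 was near the share of all genes and 4 of 23 below it. E2f1, an activating E2F, changed by -1.88 ± 0.15 at the first step (adjusted p = 6.5e-07), and Nfya, a subunit of NF-Y, rose by 0.47 ± 0.13 in YFP+ against YFP- cells (adjusted p = 0.019).

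Of 21 brakes on G2/M and targets of p53 tested, 4 were lower and 11 higher in YFP- than in unstimulated cells, and 7 were lower and 1 higher in YFP+ than in YFP- cells. The 4 lower and the 1 higher lay near the 20.9% and 3.28% of all genes, while the 11 higher and the 7 lower exceeded the 30.2% and 18.5% of all genes. Gadd45b, a stress-response gene, measured 7.37 to 11.7 CPM unstimulated, 183 to 243 CPM in YFP- and 85.5 to 100 CPM in YFP+ samples. It rose by 4.48 ± 0.16 at the first step (adjusted p = 3.2e-10) and changed by -1.19 ± 0.16 in YFP+ against YFP- cells (adjusted p = 1.6e-04). Plk3, a Polo-like kinase of the stress response, rose at both steps, by 2.40 ± 0.17 and 1.41 ± 0.17 (adjusted p = 1.9e-07 and 7.9e-05), and measured 2.25 to 2.99, 11.5 to 16.6 and 29.3 to 42.8 CPM. Cdkn1b, which encodes the CDK inhibitor p27, changed at both, by -1.20 ± 0.21 and -0.95 ± 0.21 (adjusted p = 4.0e-04 and 0.0060). These signs held under the 4 other scalings tried. Their levels and those of the 42 genes come from the same libraries, and no relation between them was tested.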

How the data were processed

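Expression was measured by RNA sequencing of 12 samples in 3 groups of 4, and the samples were grouped by their labels. The submitters' processing notes name bcl2fastq, STAR 2.7.9a, Subread, featureCounts 2.0.3 and the genome build GRCm38. For all 12 samples together the authors deposited a single file, whose values are log2 CPM (counts scaled to library size) moderated by a prior. Of 55774 lines, 287 repeats were dropped, leaving 55487 features, of which 99.4% matched GENCODE M21. All deposited values were those of whole reads (100.0% within 0.1 read) plus a prior of 0.5 reads scaled by library size, so library totals, CPM and reads were recovered from them. The reads are counts, but the deposited unit is log2 CPM and the linear model below is the test.

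The 12364 genes whose log2 CPM exceeded 0 in 4 samples or more were fitted with limma 3.58.1 (R 4.3.3) on all 12 samples with 1 coefficient per group, an intensity trend and Benjamini-Hochberg adjustment, and called at an adjusted p under 0.05. The fit was also run on simulated reads drawn independently for each sample. These lacked the uneven samples seen here, so that run checked the code and not the calls. Fold changes are on the log2 scale of the deposited values, which understates changes of genes with few reads. Errors of fold changes are standard errors, and SDs are over 4 samples. CPM per kilobase uses merged exons of GENCODE M21, the source of gene coordinates. Their length can exceed that of the transcripts expressed, which limits comparisons of level between genes. The kit named in the labels' protocol does not mark strand as far as is known, so reads of overlapping genes on opposite strands, as for 12 members, cannot be told apart. Promoters are RefSeq's, and for 3 members with 2 promoters the one nearest the GENCODE start was used. The members and all gene lists were chosen with earlier results of these data known. From other lists, up to 3 called genes with the largest rise and up to 3 with the largest fall could be named in each comparison if their mean log2 CPM was at least 2. The ribosomal RNA set of 359 features was widened after the most abundant features had been seen. Replicates differed beyond counting noise (chi-square per degree of freedom at least 18.0). Correlations of deviations between samples of the same name ran from 0.05 to 0.37 for YFP+ with YFP- samples. They ran from -0.06 to 0.10 for YFP- with unstimulated and from -0.04 to 0.38 for YFP+ with unstimulated samples. Not all were above 0.1, and the main fit did not pair samples by name. Low correlations cannot show that samples of the same name come from different mice, so the pairing stays unknown. Alternatives tried were other scalings, filters and pseudocounts, voom weights, a replicate block, and leaving out samples; those that left out YFP+ m3 and m4 together and the midpoint contrast were chosen after seeing the data.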

Additional observations from a re-analysis of the deposited data

Results flagged for a closer look

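In 9 of 129 sets of 4 samples (the 42 genes and their summed level in 3 groups), 1 sample stood apart, with a gap to its nearest neighbour that, as a share of the group's range on the log2 CPM scale, exceeded Dixon's critical value. Chance does this in about 1 in 20 sets, or 6.45 of 129.

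Unstimulated m4 was the low sample in 4 of them: Plk1 (gap 0.845 of the range, at 5.58 log2 CPM against 6.81 to 7.04), Kif22 (0.862, at 5.23 against 6.5 to 6.70), Cdc25c (0.959, at 2.87 against 4.03 to 4.08) and Nusap1 (0.832, at 5.23 against 5.79 to 5.90). YFP+ m4 was the low sample for Cdk1 (0.907, at 5.71 against 6.18 to 6.23) and Ccnb2 (0.860, at 3.25 against 3.69 to 3.77). The others were Foxm1 in unstimulated f2 (0.832, at 4.25 against 4.46 to 4.5), Incenp in unstimulated m2 (0.888, at 4.84 against 4.98 to 5.0) and Ect2 in YFP- m4 (0.843, at 1.85 against 2.20 to 2.26), each the lowest of its group.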

How the results depend on the processing

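The direction of the members' median and its distance from the median of all genes held in every comparison and setting tried. Called members ran from 37 to 40 for YFP+ against YFP-, 19 to 35 for YFP- against unstimulated and 41 to 42 for YFP+ against unstimulated. At an adjusted p under 0.05, the shares of all genes called lower ran from 5.39% to 21.7%, 6.90% to 27.9% and 13.2% to 39.7%. With the replicate block the called members were 40, 29 and 41, against 21.4%, 21.9% and 34.2% of all genes called lower. There Kif22 was gained in YFP- against unstimulated (adjusted p = 0.046), though the replicate names were not shown to pair the samples. Without YFP+ m3 and m4 the members' distance from all genes for YFP+ against unstimulated was -2.12 in place of -2.45. Single genes kept both their call and their sign in every setting for 34 of 42, 22 of 42 and 41 of 42 members. Cdk1 for YFP+ against YFP- changed sign to 0.03 with quantile normalization, 0.19 with median centring, 0.08 with trimmed-mean scaling, and 0.04 without YFP+ m3 and m4, and ran from -0.12 to 0.05 with 1 sample left out. Bub3 for YFP+ against YFP- ran from -0.07 (without YFP+ f2) to 0.13 (without YFP+ m3) with 1 sample left out, also turning to -0.04 and -0.01 without YFP- m3 and YFP+ m2, and for YFP- against unstimulated -0.03 with quantile normalization. Nuf2 for YFP- against unstimulated ran from -0.23 (without unstimulated m4) to 0.07 (without YFP- m3), with 0.03 without unstimulated f2. The cause of these changes was not tested.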
